A study of Mus musculus with 12 samples.

Results

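Molecular chaperones of the cytosol and of mitochondria were followed in mouse B cells stimulated through the B cell receptor, as a set of 34 genes among the 55487 of the deposited table. The members are the HSP70, HSP90, HSP60 and TRiC chaperones and their cochaperones named in a list of gene symbols, and all 34 were found in the table by symbol in the GENCODE mouse annotation. The cells were splenic B cells of wild-type animals (WT) or of animals without a working Fcmr gene (Fcmr KO), which encodes the receptor for the Fc part of IgM. Every culture received F(ab')2 anti-IgM at 10 µg/mL, which stimulates the cells by crosslinking their surface IgM, and was harvested after 1 h or 6 h. The 4 groups held 3 libraries each, called WT and KO here with their time. The labels name the cells naive B cells and call the libraries of a time point biological replicates, but they give no strain, age or sex, and do not say which libraries share an animal, so a p-value here reflects how far these libraries spread, which may be technical. No unstimulated library was analysed here, so a change over time is the difference between 6 h and 1 h of stimulation.

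Chaperones bind unfolded or partly folded proteins and help them to reach their folded state. HSP70 proteins bind short exposed stretches of a client under the control of J proteins, which bring the client and stimulate ATP hydrolysis, and of HSP110 proteins, which exchange the nucleotide. HSP90 completes the folding of kinases and steroid receptors with cochaperones such as Stip1, Ahsa1, Cdc37 and Fkbp4. The ring complex TRiC folds actin and tubulin, and HSP60 with its lid HSP10 folds proteins brought into the mitochondrial matrix. Hsf1 is the transcription factor of the heat shock response and binds repeated GAA units, called heat shock elements. B cells that receive an antigen signal grow and raise protein synthesis before they divide.

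The sequences around heat shock elements are shown because the members differ in them and Hsf1 is itself a member. RefSeq promoter windows (GRCm38.p6, 250 bases before to 50 bases after a gene's start) were matched for 27 of the 34 members. Hspa8, Hsp90aa1, Hsp90ab1, Dnajc2, Cct4, Hsf1 and Hspa9 had no window and were not searched. A 3-unit element, GAANNTTCNNGAA or TTCNNGAANNTTC, which are the same element read from either strand, was present in the windows of 4 members, Hsph1, Hspd1, Hspe1 and Dnajb6. It was present in 0.603% of all 32851 windows and in 0.662% of the 27025 genes with a window. The windows of Hspd1 and Hspe1 overlap, since these genes start head to head on opposite strands, and both contain the same pair of overlapping matches. In the next lines one match to the 3-unit element stands in capitals, each stretch written on the strand of its gene; in the Hspe1 stretch the second match begins in the lower-case bases before it.
Hsph1: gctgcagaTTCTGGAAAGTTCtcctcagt
Hspe1: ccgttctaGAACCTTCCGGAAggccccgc
Dnajb6: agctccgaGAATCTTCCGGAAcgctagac
The Hsph1 stretch lies at chr5:149636280-149636308 on the minus strand, within an annotated exon of Hsph1. That of Hspe1 lies at chr1:55088056-55088084 on the plus strand, with its matches starting 84 and 89 bases before a start of Hspe1, and within an annotated exon of Hspd1. That of Dnajb6 lies at chr5:29735844-29735872 on the plus strand, where exons of Dnajb6 and of Gm5129 are annotated.

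A 2-unit element, GAANNTTC or TTCNNGAA, was found in 13 of the 27 members, beside 17.0% of all genes with a window and 15.1% of all windows. Every window with a 3-unit element is included in these counts. The next lines give the stretch with a 2-unit element, in capitals, for Hspa1a and Hspa1b, the stress-inducible HSP70 genes, whose windows were identical at 296 of 300 bases.
Hspa1a: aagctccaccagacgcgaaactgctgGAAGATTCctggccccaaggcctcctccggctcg
Hspa1b: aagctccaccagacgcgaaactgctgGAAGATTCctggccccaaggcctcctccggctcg
They lie on the minus strand at chr17:34972227-34972286 and chr17:34959309-34959368, in stretches with no annotated exon, and the element starts 104 bases before the start of each gene. The E-box CACGTG, a letter string bound by MYC among other factors and the same on both strands, was found in the windows of Hspd1 and Hsph1. It was found in 7.15% of all windows and in 8.09% of all genes with a window. A match gives the letters only and no binding was measured.

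Expression is given as FPKM, which corrects a gene's fragment count for transcript length and sequencing depth. Recovered as whole fragments, the libraries held 19260751 to 24058818 fragments, and for a 2 kb transcript a count of 3 fragments equals 0.0623 to 0.0779 FPKM. Fcmr stood at 373 ± 18.5 FPKM (SD, n = 3) in WT and 49.3 ± 0.664 FPKM in KO libraries of 1 h, and at 383 ± 16.9 and 44.1 ± 2.06 FPKM at 6 h, so every library matched its genotype label. The 10 B cell markers summed to 6609–10520 FPKM at 1 h and 3562–6505 FPKM at 6 h. Markers of other cells were also present: the sum of 9 neutrophil markers among the 1 h libraries was 844 FPKM in WT replicate 1, 430 FPKM in WT replicate 2 and 25.4 to 70.0 FPKM in the other 4. None of the markers was at 0 in all libraries. In such bulk samples, fewer cells of a type and less RNA per cell cannot be told apart.

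The chaperones spanned more than 3 orders of magnitude in level. Levels of different genes are compared here per kilobase of the gene's principal transcript, because the FPKM of Hspa8, Hsp90aa1 and Dnaja3 had been computed with a short annotated transcript (357, 711 and 487 bases against 2394, 3281 and 2648 bases of the principal one) and so stand too high against other genes. On that scale Hsp90ab1, the constitutive cytosolic HSP90, was highest in WT libraries of 6 h at 1804 ± 111 FPKM, followed by Hspa8, the constitutive HSP70, at 1292 ± 34.7 FPKM. Hspd1 (HSP60) came next at 438 ± 17.8 FPKM. Hspe1 at 372 ± 45.4, Hsp90aa1 at 362 ± 3.83 and Cct2 at 346 ± 15.2 FPKM followed, and these 3 did not differ beyond their spread. At the lower end stood Hspa4l at 4.97 ± 0.829 FPKM, Hspa1b at 2.13 ± 0.422, Hspa1a at 1.44 ± 0.649 and Bag3 at 0.902 ± 0.0223 FPKM. At 1 h Hspd1 ranked 13th of 33 in WT and in KO libraries, and at 6 h it ranked 3rd in both. Cct6a has no principal transcript in the annotation and was left out of this order. All further levels are the deposited FPKM, and fold changes of one gene do not depend on its length except through the pseudocount.

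**Figure D1:**
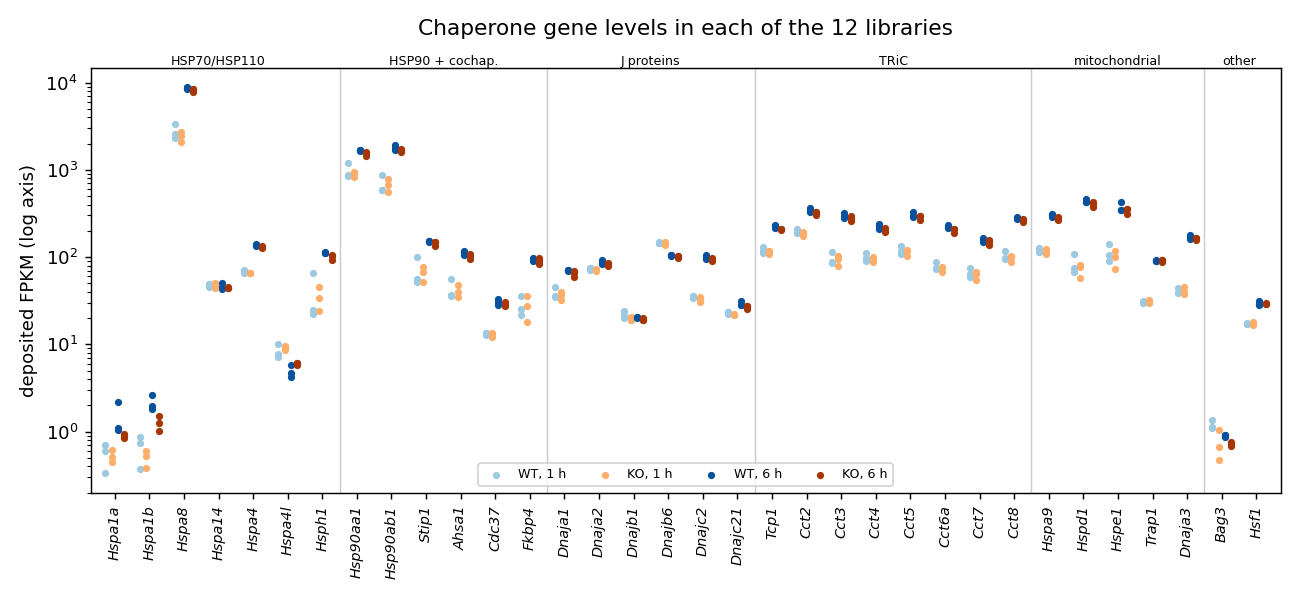
Deposited FPKM (log axis) of each of the 34 chaperone genes, ordered by role, in the 12 libraries; each point is 1 library and the colours mark genotype and time. Most genes stand higher at 6 h (dark points) than at 1 h (light points) in both genotypes, while Hspa4l and Dnajb6 stand lower, and Hspa1a, Hspa1b and Bag3 lie near or below 1 FPKM in most libraries.

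From 1 h to 6 h the chaperone genes rose in both genotypes. Of the 34 members, 32 reached the mean of 1 FPKM needed for testing, and Hspa1a and Bag3 did not. In WT cells 28 of the 32 rose, 2 fell and 2 were not called at an adjusted p of 0.05 in limma, fitted on log2(FPKM + 1) of 11841 genes with Benjamini-Hochberg adjustment over all of them. In KO cells the counts were also 28, 2 and 2, and 30 members were called in the same direction in both genotypes. Most tested genes differed between the times: in WT 49.5% of all tested genes were called higher and 29.2% lower (78.7% in either direction), and in KO 50.6% were called higher and 27.9% lower (78.5% in either direction). The members' median log2 change was 1.22 in WT and 1.19 in KO, beside 0.21 and 0.22 over all tested genes. The share of a library's fragments that fell on the members was 0.664 to 0.933% in the 6 libraries of 1 h and 1.70 to 2.00% in the 6 of 6 h. Sums of macrophage and erythroid markers were lower at 6 h. The 9 macrophage markers summed to 111 to 216 FPKM at 1 h and 24.4 to 36.6 FPKM at 6 h. The 7 erythroid markers summed to 499 to 1890 and 297 to 685 FPKM. The macrophage marker Axl did not fall, with means at 1 h and 6 h of 13.7 and 13.2 FPKM in WT and 8.4 and 13.2 FPKM in KO. B cell markers fell as well, with 8 of 10 called lower and 1 higher in each genotype. None of these markers was at 0 in all libraries, and their part in the changes over time was not tested.

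The median level of all tested genes rose by 0.23 (WT) and 0.26 (KO) on the log2 scale, and calls relative to that shift are given here once. With each library centred on its median, 26 WT members rose and 4 fell, and 25 KO members rose and 4 fell, with medians of 0.98 and 0.93. Centring also moved the split of all calls, from 62.9% to 49.5% higher in WT and from 64.5% to 49.1% in KO. The members whose call depended on it were Dnaja2, Dnajc21, Hspa14, Dnajb1 and, in KO, Hspa1b, and each is described with its group.

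**Figure D2:**
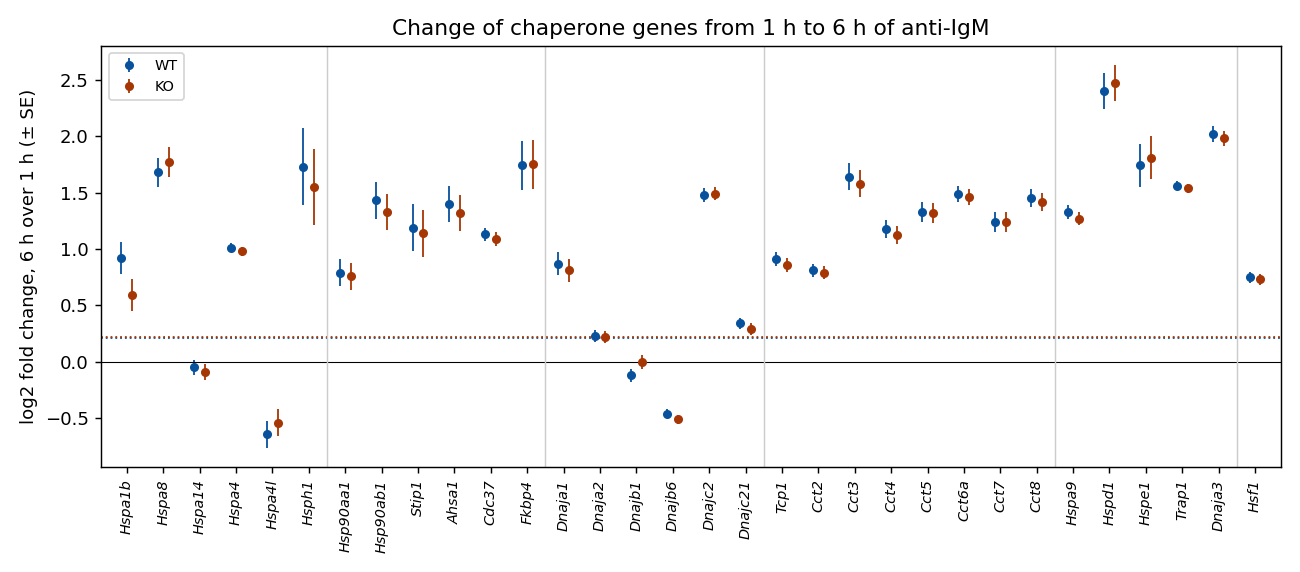
Log2 change from 1 h to 6 h of anti-IgM (y axis, difference of log2(FPKM + 1), 6 h over 1 h, ± SE) of the 32 tested chaperone genes in WT (blue) and KO (red), grouped by role; dotted lines are the medians of all 11841 tested genes. The WT and KO points of each gene lie close together, Hspd1 is highest at 2.40 and 2.47, and Hspa4l and Dnajb6 lie below 0 in both genotypes.

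All 5 mitochondrial chaperones rose in both genotypes, and their medians of 1.74 in WT and 1.81 in KO were the largest of the role groups. Hspd1 (chr1:55077835-55088243, minus strand), the HSP60 chaperonin of the matrix, stood at 109, 75.8 and 67.8 FPKM in WT and 77.6, 58.3 and 81.4 FPKM in KO libraries of 1 h. At 6 h it stood at 430, 459 and 426 FPKM in WT and 426, 405 and 377 FPKM in KO. The times did not overlap in either genotype, and the lowest library of 6 h was more than 3 times the highest of 1 h. The change was 2.40 ± 0.16 (SE) in WT (limma adjusted p = 1.26e-07) and 2.47 ± 0.16 in KO (adjusted p = 1.01e-07), which ranked 46th and 36th of the 11841 genes by size among rises.

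Hspe1 (chr1:55088132-55091307, plus strand) encodes HSP10, the lid of the HSP60 barrel. It stood at 141, 106 and 89.4 FPKM in WT and 102, 73.5 and 117 FPKM in KO at 1 h, and at 345, 424 and 346 FPKM in WT and 358, 352 and 309 FPKM in KO at 6 h. All 6 h libraries were above all 1 h libraries, with changes of 1.74 ± 0.19 (WT, adjusted p = 5.71e-06) and 1.81 ± 0.19 (KO, adjusted p = 4.08e-06). Hspd1 and Hspe1 share exon bases on opposite strands; the library kit marks strand, but whether the authors' counting used it is not given in the sources used here, so reads of their overlap could have been split between them.

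Dnaja3, the J protein of the mitochondrial HSP70, whose annotated exons overlap those of Vasn on the same strand, had 44.6, 39.7 and 38.4 FPKM in WT and 45.0, 39.4 and 38.2 FPKM in KO at 1 h. At 6 h it had 169, 177 and 160 FPKM in WT and 168, 164 and 159 FPKM in KO. The replicates lay close together at both times, and the change was 2.02 ± 0.07 in WT (adjusted p = 1.22e-09) and 1.98 ± 0.07 in KO (adjusted p = 1.58e-09). Trap1, the mitochondrial HSP90, moved from 31.0, 30.7 and 29.9 FPKM to 91.1, 93.1 and 90.9 FPKM in WT and from 29.7, 31.0 and 32.1 FPKM to 93.3, 93.3 and 89.1 FPKM in KO. Its changes of 1.56 ± 0.04 and 1.54 ± 0.04 had the smallest adjusted p of the members, 1.57e-10 in WT and 1.9e-10 in KO. Hspa9, the HSP70 of the matrix and part of the motor that pulls proteins in, rose from 119 ± 7.14 to 300 ± 8.63 FPKM in WT and from 116 ± 8.58 to 280 ± 10.1 FPKM in KO, a change of 1.33 ± 0.06 and 1.27 ± 0.06.

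All 8 measured subunits of TRiC rose in both genotypes, by 0.81 to 1.64 in WT and 0.79 to 1.58 in KO. The subunits form one ring complex in which each has a fixed place. Cct3 changed most: it stood at 115, 88.2 and 85.2 FPKM in WT and 96.3, 79.4 and 103 FPKM in KO at 1 h, and at 295, 322 and 284 FPKM in WT and 294, 282 and 257 FPKM in KO at 6 h. Cct2 changed least and had the highest deposited FPKM of the subunits at 1 h, with 211, 188 and 191 FPKM in WT and 192, 177 and 189 FPKM in KO, against 344, 362 and 332 FPKM (WT) and 332, 331 and 305 FPKM (KO) at 6 h. The order of the subunits by change was therefore not that of their levels: the 2 subunits with the smallest change, Cct2 and Tcp1, were among the 3 highest in WT at 1 h. Tcp1 changed by 0.91 ± 0.06 in WT and 0.86 ± 0.06 in KO, Cct4 by 1.18 and 1.12, Cct7 by 1.24 and 1.24, Cct5 by 1.33 and 1.32, Cct8 by 1.45 and 1.42, and Cct6a by 1.49 and 1.46. Across the subunits the mean of log2(FPKM + 1) was 6.52 to 6.89 at 1 h and 7.79 to 8.05 at 6 h. Exons of Tcp1, Cct6a, Cct7 and Cct8 overlap genes on the opposite strand, with the same limit on strand as for Hspd1.

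HSP90 and its cochaperones also rose without exception, 6 of 6 in each genotype, with medians of 1.30 in WT and 1.23 in KO. Hsp90ab1 stood at 874, 587 and 580 FPKM in WT and 674, 558 and 786 FPKM in KO at 1 h. At 6 h it stood at 1775, 1926 and 1709 FPKM in WT and 1739, 1681 and 1616 FPKM in KO, above every library of 1 h. Its change was 1.43 ± 0.16 in WT (adjusted p = 7.1e-06) and 1.33 ± 0.16 in KO (adjusted p = 1.3e-05). The stress-responsive paralogue Hsp90aa1 changed less, by 0.79 ± 0.12 and 0.76 ± 0.12, from 1201, 874 and 853 FPKM (WT) and 923, 820 and 948 FPKM (KO) to 1685, 1679 and 1652 FPKM (WT) and 1584, 1543 and 1434 FPKM (KO).

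Among the cochaperones, Fkbp4, an immunophilin that works with HSP90 on steroid receptors, changed most. It stood at 36.3, 25.2 and 22.0 FPKM in WT and 27.5, 17.9 and 36.1 FPKM in KO at 1 h, and at 89.8, 98.1 and 92.4 FPKM in WT and 97.0, 90.6 and 83.6 FPKM in KO at 6 h. The change was 1.74 ± 0.22 in WT (adjusted p = 2.46e-05) and 1.75 ± 0.22 in KO (adjusted p = 2.41e-05). Ahsa1, which activates the HSP90 ATPase and overlaps Gm47293 on the same strand, rose by 1.40 ± 0.16 and 1.32 ± 0.16. Stip1, which links HSP70 to HSP90, rose by 1.19 ± 0.21 and 1.14 ± 0.21, from 99.6, 56.3 and 51.6 FPKM in WT and 66.9, 52.4 and 78.0 FPKM in KO to 155, 153 and 150 FPKM in WT and 150, 148 and 135 FPKM in KO. Cdc37, which brings kinases to HSP90, rose by 1.13 ± 0.06 and 1.09 ± 0.06, from 13.3 ± 0.423 to 30.4 ± 2.60 FPKM in WT.

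The HSP70 and HSP110 genes did not all move the same way: of the 6 tested, 4 rose, Hspa4l fell and Hspa14 was not called, in each genotype. Hspa8, the constitutive HSP70 that also strips clathrin from vesicles, stood at 3346, 2549 and 2310 FPKM in WT and 2430, 2096 and 2703 FPKM in KO at 1 h. At 6 h it stood at 8909, 8643 and 8445 FPKM in WT and 8501, 8352 and 7718 FPKM in KO. The times were far apart, with changes of 1.68 ± 0.13 (WT, adjusted p = 4.51e-07) and 1.77 ± 0.13 (KO, adjusted p = 3e-07). Exons of small nucleolar RNAs lie within those of Hspa8 on the same strand.

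The HSP110 genes encode nucleotide exchange factors of HSP70, and their 3 members went different ways. Hsph1 stood at 65.4, 24.6 and 22.5 FPKM in WT and 34.2, 24.0 and 45.9 FPKM in KO at 1 h, and at 114, 110 and 112 FPKM in WT and 105, 103 and 93.6 FPKM in KO at 6 h. It rose by 1.73 ± 0.34 in WT (adjusted p = 0.000705) and 1.55 ± 0.34 in KO (adjusted p = 0.0015), with the widest spread of the tested members among the WT libraries of 1 h. Hspa4 rose by 1.01 ± 0.04 and 0.98 ± 0.04, from 70.4, 66.4 and 68.9 FPKM to 139, 143 and 135 FPKM in WT and from 65.5, 66.2 and 64.9 FPKM to 136, 130 and 126 FPKM in KO. Hspa4l went the other way, from 10.1, 7.09 and 7.82 FPKM in WT and 9.36, 8.63 and 9.63 FPKM in KO to 4.76, 4.26 and 5.88 FPKM in WT and 5.85, 6.09 and 6.13 FPKM in KO. It fell by 0.64 ± 0.12 (WT, adjusted p = 0.000432) and 0.54 ± 0.12 (KO, adjusted p = 0.00148), and no library of 6 h reached the lowest of 1 h.

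Hspa14, a ribosome-associated HSP70, stood between 42.8 and 51.1 FPKM in all 12 libraries; its exons overlap those of Gm45902 on the same strand. Its changes of -0.05 ± 0.07 (WT, adjusted p = 0.489) and -0.09 ± 0.07 (KO, adjusted p = 0.238) did not pass the test as deposited, and with centred libraries it was called lower at -0.28 and -0.35.

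The stress-inducible HSP70 genes Hspa1a and Hspa1b were at the bottom of the range at both times. Hspa1b had 0.868, 0.371 and 0.749 FPKM in WT and 0.602, 0.388 and 0.525 FPKM in KO at 1 h, which are 20 to 50 fragments a library. At 6 h it had 1.97, 2.61 and 1.81 FPKM in WT (114 to 161 fragments) and 1.25, 1.53 and 1.02 FPKM in KO (63 to 93 fragments). The times did not overlap, and it rose by 0.92 ± 0.14 in WT (adjusted p = 0.000123) and 0.59 ± 0.14 in KO (adjusted p = 0.003); the KO call was lost with centred libraries (0.32, adjusted p = 0.0594). All its 1 h libraries were under 1 FPKM, so it passed the filter only through its levels at 6 h, which favours a call over time; with no filter it was called in both genotypes as well. The pseudocount of 1 FPKM shrinks these changes: the ratio of the means was 3.21 in WT and 2.51 in KO.

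Hspa1a, below the filter, had 0.607, 0.333 and 0.708 FPKM in WT and 0.455, 0.616 and 0.511 FPKM in KO at 1 h, and 1.09, 2.19 and 1.04 FPKM in WT and 0.897, 0.841 and 0.934 FPKM in KO at 6 h. Its libraries of 6 h were above those of 1 h in each genotype, with differences of 0.63 (WT) and 0.31 (KO) on the log2(FPKM + 1) scale. A two-sided exact permutation test gave p = 0.1 for each, the smallest that 3 against 3 libraries allow. In limma with no filter it was called higher in WT (adjusted p = 0.0097) and not called in KO (adjusted p = 0.182). The difference between the genotypes in this change was not called there (-0.32, limma adjusted p = 0.953). Hspa1a and Hspa1b are near-identical copies whose reads can be assigned to either, so their separate values are uncertain.

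Among the J proteins 4 of 6 were called higher and 1 lower in each genotype, with medians of 0.28 in WT and 0.26 in KO, beside 0.21 and 0.22 over all genes. Dnajc2, a J protein that works at the ribosome, rose most, by 1.48 ± 0.06 in WT (adjusted p = 2.06e-09) and 1.49 ± 0.06 in KO (adjusted p = 2.28e-09). It stood at 35.6, 35.7 and 33.8 FPKM in WT and 34.8, 30.7 and 33.1 FPKM in KO at 1 h, and at 94.8, 106 and 98.2 FPKM in WT and 97.4, 94.5 and 89.7 FPKM in KO at 6 h. Dnaja1, a cytosolic partner of Hspa8, rose by 0.87 ± 0.10 and 0.81 ± 0.10, from 38.5 ± 5.78 to 70.7 ± 1.06 FPKM in WT and from 36.4 ± 3.74 to 64.7 ± 5.32 FPKM in KO.

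Dnaja2 and Dnajc21 were called higher by small amounts that were at or near the shift of all genes. Dnaja2 changed by 0.23 ± 0.05 in WT and 0.22 ± 0.05 in KO (adjusted p = 0.00104 and 0.0014), and at 0.00 and -0.04 with centred libraries it was not called. Dnajc21, whose yeast homologue acts in ribosome assembly, changed by 0.34 ± 0.05 and 0.29 ± 0.05 (adjusted p = 9.49e-05 and 0.000322), and by 0.11 and 0.03 with centred libraries, where it was not called either.

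Dnajb6, a J protein that keeps polyglutamine proteins from aggregating, fell in both genotypes. It stood at 149, 145 and 145 FPKM in WT and 144, 139 and 151 FPKM in KO at 1 h, and at 107, 106 and 104 FPKM in WT and 102, 102 and 98.1 FPKM in KO at 6 h. The genotypes fell by 0.46 ± 0.04 (WT, adjusted p = 5.16e-07) and 0.51 ± 0.04 (KO, adjusted p = 2.27e-07). The window of Dnajb6 holds a 3-unit element, as do those of Hsph1, Hspe1 and Hspd1, which rose. Hspe1 and Hspd1 share the same matches. A part of this element in the changes over time was not tested.

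Dnajb1, the J protein of the heat shock response, stood at 22.0, 24.0 and 20.1 FPKM in WT and 18.9, 20.3 and 18.9 FPKM in KO at 1 h, and at 20.4, 20.4 and 19.8 FPKM in WT and 19.9, 19.3 and 18.9 FPKM in KO at 6 h. The groups overlapped and neither change was called, at -0.12 ± 0.06 in WT (adjusted p = 0.0867) and 0.00 ± 0.06 in KO (adjusted p = 0.964). With centred libraries it was called lower in both, at -0.35 and -0.27, and in WT it was also called at -0.18 without replicate 3 of 1 h.

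Hsf1 itself rose by 0.75 ± 0.05 in WT (adjusted p = 5.54e-08) and 0.73 ± 0.05 in KO (adjusted p = 6.93e-08). It stood at 17.1, 17.7 and 16.9 FPKM in WT and 16.6, 17.8 and 17.3 FPKM in KO at 1 h, and at 29.2, 31.5 and 28.1 FPKM in WT and 29.4, 29.0 and 29.3 FPKM in KO at 6 h. Bag3, a nucleotide exchange factor of HSP70 and a known target of Hsf1, was below the filter, with 1.10, 1.36 and 1.13 FPKM in WT and 0.470, 0.675 and 1.05 FPKM in KO at 1 h, and 0.906, 0.922 and 0.878 FPKM in WT and 0.730, 0.757 and 0.692 FPKM in KO at 6 h. Its WT libraries of 6 h were below those of 1 h by 0.21 on the log2(FPKM + 1) scale (exact permutation p = 0.1, two-sided), and its KO times overlapped (p = 0.9). These values rest on 25 to 67 fragments a library.

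The libraries of 1 h differed in their chaperone levels within each genotype, and the members differed in how far they took part. WT replicate 1 was the highest of the 6 libraries of that time for 22 of the 32 tested members, and KO replicate 2 the lowest for 21; among the KO libraries replicate 3 was highest for 18. WT replicate 1 and KO replicate 2 also had the highest and lowest upper quartile over all tested genes at 1 h, 27.22 and 26.49 FPKM. By median on the log2 scale WT replicate 2 was highest, at 3.494 beside 3.488 in WT replicate 1, and KO replicate 2 was lowest, at 3.442. The highest library exceeded the lowest by more than 1.5 times for 8 members in WT and 4 in KO at 1 h, against 0 and 1 at 6 h. None of these counts was made over all genes. The members' median SD on the log2 scale was 0.15 in WT and 0.11 in KO at 1 h, beside 0.09 and 0.08 over all tested genes, and 0.07 and 0.07 at 6 h, beside 0.09 and 0.06.

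Of the tested members Hsph1 varied most in WT at 1 h, with its highest library 2.91 times the lowest, and Fkbp4 varied most in KO, at 2.02 times. Stip1, Ahsa1, Hspd1, Hspe1 and Hsp90ab1 followed the same libraries. Hsph1, Hspd1, Hspe1 and Fkbp4 have a 2-unit or 3-unit element in their windows. Dnajb6 and Cdc37, which varied little at 1 h, have one too. Stip1 and Ahsa1, which varied, have none in their windows, and Hsp90ab1 had no window to search. A part of these elements in the spread was not tested. Hsf1 at 16.6 to 17.8 FPKM, Trap1 at 29.7 to 32.1 FPKM and Dnajc21 at 21.5 to 23.4 FPKM were even across the 6 libraries, and Hspa1a and Hspa1b stayed under 1 FPKM in all of them. The mean of log2(FPKM + 1) over 20 chaperones of the endoplasmic reticulum was highest in KO replicate 3, at 5.83. WT replicate 1, at 5.63, was close to WT replicate 2, at 5.62, and KO replicate 1, at 5.60, and so did not stand out. The median SD of that list was 0.11 in WT and 0.19 in KO at 1 h. Neutrophil markers summed to 844 FPKM in WT replicate 1 and 36.1 FPKM in KO replicate 3, the libraries with high chaperone levels, and to 430 FPKM in WT replicate 2, where those levels were lower. The 7 erythroid markers summed to 1890, 1852 and 524 FPKM in WT and 1278, 499 and 810 FPKM in KO at 1 h. The part of these cells in the chaperone levels was not tested.

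**Figure D3:**
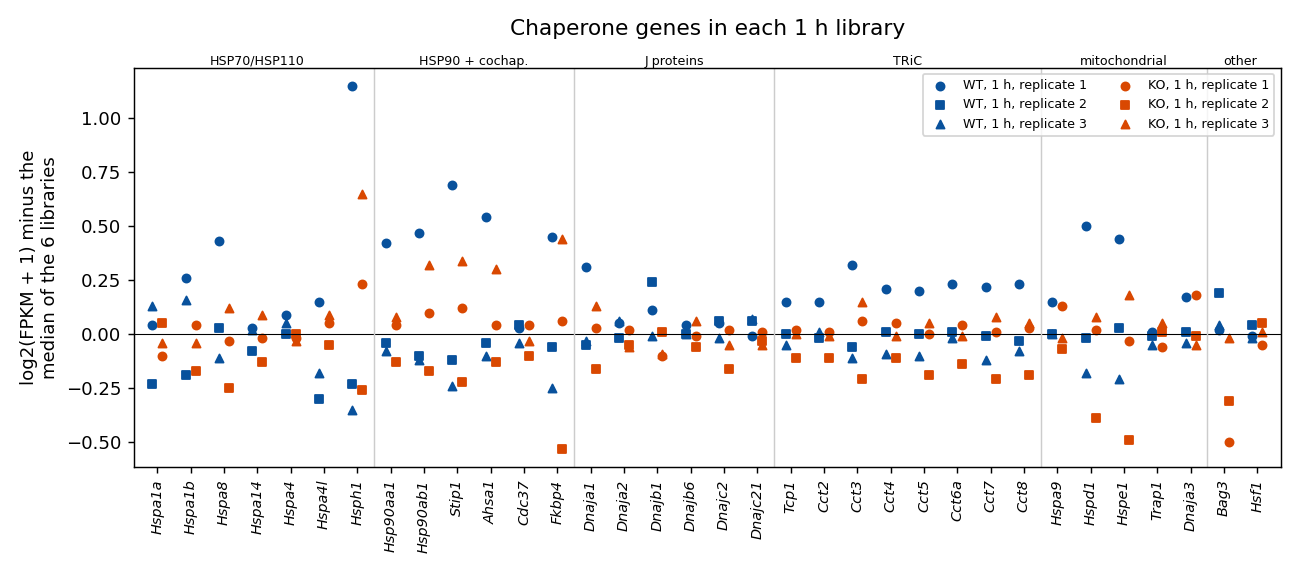
Each 1 h library's log2(FPKM + 1) for the 34 chaperone genes minus the median of the 6 libraries of 1 h (y axis), by role; blue marks WT, red KO, and the shape marks the replicate. WT replicate 1 (blue circles) stands highest for most HSP90, TRiC and mitochondrial HSP60 genes and for Hsph1, and KO replicate 2 (red squares) lowest for 21 of the 32 tested genes, while Hsf1, Trap1 and Dnajc21 differ little.

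With each library left out in turn, 28 members were called higher over time in each genotype, and the members' median change was 1.14 to 1.36 in WT and 1.11 to 1.26 in KO. For Hsph1 the WT change was 1.46 without replicate 3 of 1 h and 2.21 without replicate 1, and the KO change was 1.32 without replicate 2 of 1 h and 1.77 without replicate 3. Leaving out both high libraries of 1 h (replicate 1 of WT, replicate 3 of KO), a choice made after the data were seen, lowers the 1 h means and so raises the changes by construction; the medians were then 1.36 and 1.26.

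The KO was compared with WT at each time to ask whether loss of Fcmr altered the response to the B cell receptor. None of the 32 tested chaperones was called at either time, and none was called for a difference between genotypes in the change over time. Over all genes, limma called 0.524% at 1 h (62 genes), 0.228% at 6 h (27 genes) and 0.0253% for the difference in change (3 genes). At an unadjusted p of 0.05, 1 member passed at 1 h, 2 at 6 h and 0 for the difference in change, beside 11.3%, 7.55% and 4.54% of all genes. With limma-voom on recovered fragments the members' counts were also 0 in all 3 comparisons.

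At 1 h the members' log2 differences, KO minus WT, ran from -0.20 to 0.14 with a median of -0.06, and 28 of 32 were negative, beside a median of -0.01 and 54.6% negative over all genes. This median rested on single libraries, being 0.00 without WT replicate 1 and -0.01 without KO replicate 2. The groups did not overlap for 1 member, Hspa4 (-0.06 ± 0.04, adjusted p = 0.595), whose KO libraries were the lower; 8.59% of all genes had this pattern. Dnajb1 had the smallest p, with 22.0 ± 1.95 FPKM in WT and 19.4 ± 0.834 FPKM in KO (-0.17 ± 0.06, limma adjusted p = 0.269), and its unadjusted p was the one under 0.05. Dnajc2 (-0.09 ± 0.06) and Cct6a (-0.11 ± 0.07) came next with Hspa4, at adjusted p of 0.595 and 0.646. Hspd1 and Hspe1 had the largest negative differences, -0.20 ± 0.16 and -0.20 ± 0.19, which were close to their errors. Bag3 was lower in every KO library than in every WT library at 1 h, by 0.36 on the log2(FPKM + 1) scale (exact permutation p = 0.1).

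At 6 h 30 of the 32 differences were negative, from -0.46 to 0.24, with a median of -0.09, beside a median of 0.00 and 49.3% negative over all genes. In 11 members every KO library was below every WT library, namely Hspa1b, Hsph1, Hsp90aa1, Dnaja1, Dnajb6, Dnajc21, Tcp1, Cct6a, Cct8, Hspa9 and Hspd1, and 6.97% of all genes did so. KO replicate 3 was the lowest of the 6 libraries for 29 of the 32 members, and WT replicate 2 the highest for 23. These libraries also had the lowest and highest upper quartile over all tested genes, 30.25 and 30.66 FPKM. Their medians on the log2 scale, 3.715 and 3.716, were not the extremes. The number of all genes with this order was not counted. Without KO replicate 3 the median was -0.06, and without WT replicate 2 it was -0.06 as well. With libraries scaled to a common upper quartile the members' median was -0.088, and with centred libraries it was -0.102. The 32 genes share these 6 libraries, so their common sign is not a count of separate observations. The sum of the 9 macrophage markers was also lower in KO, with 177 to 216 FPKM in WT and 111 to 123 FPKM in KO at 1 h. At 6 h the sums were 31.0 to 36.6 FPKM in WT and 24.4 to 28.5 FPKM in KO. Axl, at a mean of 13.2 FPKM in both genotypes at 6 h, was a large part of these sums and did not differ there. The part of the macrophage markers in the chaperone differences was not tested.

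Hspa1b showed the largest difference at 6 h, 1.97, 2.61 and 1.81 FPKM in WT against 1.25, 1.53 and 1.02 FPKM in KO. The KO libraries were all below the WT ones, by 0.46 ± 0.14 on the log2 scale (limma adjusted p = 0.396), which did not pass. Hspa1b reached the filter only through its WT libraries of 6 h. This favours a difference of this sign at 6 h, its place among the members without overlap, and its difference in the change over time. Hspa1a showed 1.44 ± 0.649 FPKM in WT and 0.890 ± 0.0470 FPKM in KO, without overlap (difference -0.34, exact permutation p = 0.1). Next by limma p were Hspa4, with 139 ± 4.08 and 130 ± 4.84 FPKM (-0.09 ± 0.04, adjusted p = 0.645), and Dnajc21 with 29.3 ± 1.83 and 27.0 ± 1.22 FPKM (-0.11 ± 0.05, adjusted p = 0.66). Hspa4l followed and was higher in KO, with 4.97 ± 0.829 and 6.02 ± 0.149 FPKM (0.24 ± 0.12, limma adjusted p = 0.694). Trap1 was at 91.7 ± 1.24 FPKM in WT and 91.9 ± 2.43 FPKM in KO, a difference of 0.00 ± 0.04.

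The change over time differed between the genotypes by -0.33 (Hspa1b) to 0.11 (Dnajb1) on the log2 scale, as KO minus WT, with a median of -0.03 over the members and 0.02 over all genes. With each library left out the members' median ran from -0.10 (WT replicate 1 of 1 h) to 0.01 (KO replicate 3 of 1 h), so its sign rested on single libraries. For Hspa1b, Dnajb1, Dnajb6 and Hspa9, the members with the smallest p, the adjusted p was 1.

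**Figure D4:**
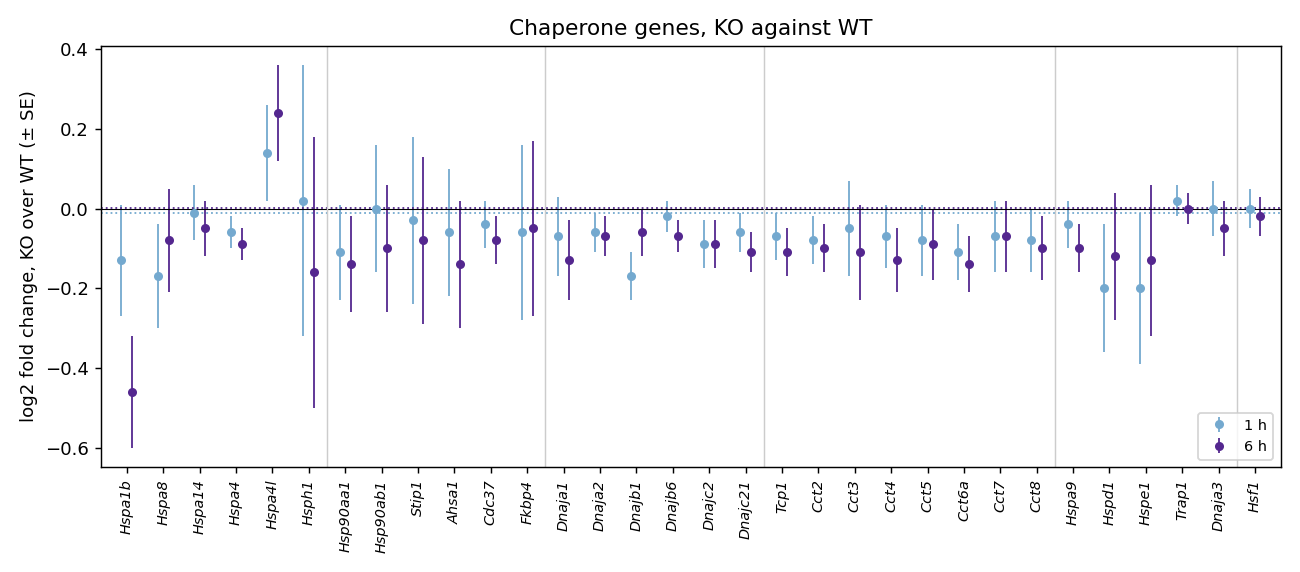
Log2 difference of KO from WT (y axis, difference of log2(FPKM + 1) ± SE) of the 32 tested chaperone genes at 1 h (light blue) and 6 h (purple), grouped by role; dotted lines are the medians of all tested genes. Most points lie just below 0, Hspa1b at 6 h is lowest at -0.46, Hspa4l lies above 0 at both times, and no gene passed the test.

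Other genes of protein folding gave a background to the members. From a list of 68 further cochaperones, prefoldin subunits, small heat shock proteins and mitochondrial proteases, 62 could be tested. In WT 47 rose and 8 fell, and in KO 48 rose and 8 fell, with medians of 0.77 and 0.74. Over all tested genes 49.5% (WT) and 50.6% (KO) were called higher and 29.2% and 27.9% lower, with medians of 0.21 and 0.22. Tomm70a, an import receptor of the mitochondrial outer membrane that binds HSP70 and HSP90, rose from 16.2 ± 1.14 to 51.3 ± 0.856 FPKM in WT (1.60 ± 0.05) and from 15.4 ± 0.456 to 49.8 ± 1.88 FPKM in KO (1.63 ± 0.05). Dnajc11, a mitochondrial J protein, rose by 1.32 ± 0.04 and 1.25 ± 0.04. The J proteins Dnajb2 and Dnajb4 fell, by 1.55 ± 0.06 and 1.32 ± 0.05 in WT and by 1.45 ± 0.06 and 1.27 ± 0.05 in KO. KO against WT called 0 of the 62 at each time, beside 0.524% of all tested genes at 1 h and 0.228% at 6 h. At an unadjusted p of 0.05 in limma 5 passed at 1 h and 1 at 6 h, beside 11.3% and 7.55% of all tested genes.

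The chaperones of the endoplasmic reticulum, the most similar set in another compartment, had smaller medians, 0.60 in WT and 0.40 in KO. Of the 20, 15 rose and 2 fell in WT, and 13 rose and 3 fell in KO. Among all tested genes 49.5% were called higher and 29.2% lower in WT, and 50.6% and 27.9% in KO. Hyou1, an HSP110 relative of the endoplasmic reticulum, rose by 1.34 ± 0.09 in WT and 1.18 ± 0.09 in KO, and Canx, a lectin chaperone, by 1.13 ± 0.08 and 1.00 ± 0.08. Dnajb9, a J protein of the unfolded protein response, fell by 1.60 ± 0.04 in WT and 1.49 ± 0.04 in KO, from 86.5 ± 1.98 to 27.9 ± 0.429 FPKM and from 81.2 ± 1.56 to 28.3 ± 0.871 FPKM. The difference between this list and the members was not tested.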

How the data were processed

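Poly-A RNA of 12 libraries was sequenced, in triplicate per genotype and time. The deposited values are FPKM per gene, as the table is named by the authors; STAR, HTSeq and the build mm10 are named per the submitters' processing notes, and the annotation and gene lengths are not given in the sources used here. Multiplied by an annotated transcript length and the library's total, 99.0% of tested genes gave whole fragments in every library (tolerance 0.01). GENCODE release vM21 gave symbols and positions. All 12 columns were used and 0 left out.

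The 11841 genes whose mean reached 1 FPKM were tested on log2(FPKM + 1) with limma 3.58.1 in R 4.3.3, with 4 group means, a variance trend, two-sided p-values adjusted after Benjamini-Hochberg across these genes, called at an adjusted p under 0.05. Genes below the filter were compared by exact permutation. The members and lists were chosen with earlier results of these data known. Named were all members, and of each other list up to 4 genes with the smallest p. The fit was also run on simulated counts, drawn independently with the same spread setting for every gene. Differences that many genes of a library share were not simulated. The reported tests used no pairing of libraries. Only in the replicate block alternative were libraries with the same number paired across times within a genotype. Their correlation of deviations was 0.338 to 0.547 in WT and 0.365 to 0.476 in KO. In that alternative KO against WT was adjusted for the replicate number. Other pseudocounts, filters, scalings, the replicate block, each library left out and limma-voom were alternatives.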

Additional observations from a re-analysis of the deposited data

How the results depend on the processing

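The counts of chaperone genes called kept within 1.5 times of the values reported under every alternative that was run: 27 to 31 in WT and 26 to 30 in KO over time, and 0 for KO against WT at 1 h, at 6 h and for the difference in change. The values that changed sign were near 0: Dnaja2 over time, at 0.00 in WT and -0.04 in KO with centred libraries, and Dnajb1 in KO, at 0.03 without replicate 2 of 1 h and 0.01 without replicate 3 of 6 h (-0.02 to 0.03 with each library left out). Requiring a change of at least 1.5-fold ended the calls of Dnaja2, Dnajb6 and Dnajc21 in both genotypes and of Hspa4l in KO, and took the genes called over time to 5800 in WT and 5669 in KO.

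Counts over all genes between genotypes were less stable. At 1 h (62 genes) they were 108 with a pseudocount of 5 FPKM, 115 with no filter, 32 with a mean of at least 5 FPKM, 21 with only the 6 libraries compared, 191 without both WT libraries numbered 3, 40 at 1.5-fold, 15 without the libraries of 1 h with the highest chaperone levels, 98 with limma-voom, and 30 to 142 with each library left out. At 6 h (27 genes) they were 10 with only the 6 libraries, 64 without both WT libraries numbered 3, 15 at 1.5-fold, and 12 to 30 with each library left out. For the difference in change (3 genes) they were 0 with a pseudocount of 0.1 FPKM, 6 with 5 FPKM, 21 with no filter, 0 with the filter at 5 FPKM, 1 with the WT libraries numbered 3 left out, 1 without the libraries of highest chaperone level, 0 with limma-voom, and 1 to 3 with each library left out; with the replicate block the count was 1, and the block changed no call of a chaperone. Limma-voom and leaving out the libraries of highest chaperone level were chosen after the data were seen. The cause was not tested. Hspa1a, Hspa1b and Bag3 rest on few fragments, which limits their precision.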
